A study of Mus musculus with 6 samples.

Results

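Apelin and adrenomedullin are secreted peptides that act on blood vessel walls, and the 8 genes described here encode those peptides and the proteins that receive them. The genes are the ligands Apln, Apela and Adm, the receptors Aplnr and Calcrl, and the receptor activity-modifying proteins Ramp1, Ramp2 and Ramp3. They were chosen by name from the authors' deposited comparison table of 26071 genes and followed by Ensembl ID into the count tables, which list 49315 genes. All 8 were found, and 7 of 8 passed the filter on low counts. Apela did not pass.

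Apelin and the peptide encoded by Apela, called Elabela or Toddler, both bind the apelin receptor Aplnr, a G protein-coupled receptor of endothelial cells. In growing vessels Apln is known as a gene of the sprouting tip cells, while Aplnr is known from veins and capillaries. Adrenomedullin binds Calcrl, which reaches the cell surface and takes on its ligand preference only together with a RAMP: with Ramp2 or Ramp3 it is an adrenomedullin receptor, and with Ramp1 it is the receptor of calcitonin gene-related peptide (CGRP). Loss of Adm, Calcrl or Ramp2 in mice disturbs the development of blood and lymphatic vessels.

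RNA was measured in endothelial cells from 4T1 tumours, which form from a mouse mammary carcinoma line transplanted into mice of its own strain. Female Balb/c mice received 4T1 cells in the inguinal mammary fat pad at 8 weeks of age, and tumours were taken 2 weeks later, at 10 weeks of age. One hour before harvest every mouse was given 1E12 gold nanoparticles by tail vein, each 50 nm across and carrying 5 kDa methoxy-polyethylene glycol and the dye Cy5. Cells were depleted of CD45+ leukocytes, enriched for CD31+ endothelial cells and then divided by flow cytometry into a nanoparticle-positive fraction (NP+) and a nanoparticle-negative fraction (NP-). The 3 tumours are called MET-106, MET-107 and MET-108 here, and 1 library was made per tumour and fraction. NP+ and NP- cells of a tumour therefore share the mouse, the tumour and the injection, and no library comes from an uninjected mouse. The comparison asks how the 2 fractions of 1 endothelium differ in the RNA of these 8 genes.

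The libraries held 20856410 to 58089600 gene counts. Levels are given as library-scaled counts (CPM, by the trimmed mean of M values, TMM), as mean ± SD with n = 3 per fraction. Where 3 library values are listed for a fraction, they follow the order of the tumours: MET-106, then MET-107, then MET-108. Where 2 means are set against each other, NP+ comes first. The NP- libraries differed among themselves, with correlations of log2 CPM of 0.832 to 0.876, where the NP+ libraries correlated at 0.959 to 0.97. The NP- library of MET-106 was closer to the NP+ libraries (0.945 to 0.951) than the other NP- libraries were (0.832 to 0.883). That library held 4137 CPM of 8 summed fibroblast markers, against 71.5 and 160 CPM in the other NP- libraries and 21.5 to 69.6 CPM in NP+. Its 9 pericyte and smooth muscle markers summed to 867 CPM (150 and 268 CPM in the other NP- libraries, 97.2 to 119 CPM in NP+) and its 8 epithelial markers to 568 CPM (19.7 and 36.9, and 8.21 to 12.1). Endothelial markers were high throughout: 12 pan-endothelial genes summed to between 11826 and 14192 CPM in the NP+ libraries and between 7809 and 11164 CPM in the NP- libraries. Pecam1 (CD31) averaged 3291 ± 500 CPM in NP+ against 2353 ± 449 in NP-, and Ptprc (CD45) 4.48 ± 0.997 against 13.9 ± 10.4. These marker levels move with the fractions, and their part in the differences below was not tested. In sorted bulk samples, fewer cells of a type and less RNA per cell cannot be told apart.

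No member of the set passed an adjusted p of 0.05 in edgeR's quasi-likelihood test with Benjamini-Hochberg adjustment over 23989 genes. That threshold was met by 0.0292% of all genes tested, in either direction. At an unadjusted p under 0.05, edgeR placed 4 members higher in NP+ (Apln, Aplnr, Ramp2 and Ramp3) and 1 lower (Ramp1), where 8.01% of all genes were higher and 15.4% lower. In TMM-scaled CPM, all NP+ libraries lay above all NP- libraries in 5 members (Apln, Aplnr, Calcrl, Ramp2 and Ramp3), as in 13.3% of genes. No member lay wholly below, as 15.6% of genes did. Most members are well expressed, and among the 10825 genes with a mean of at least 5 CPM the shares were larger, at 17.5% for an unadjusted p under 0.05 with a higher NP+ level and 27.3% for NP+ wholly above NP-. DESeq2 on the same counts called 3 members higher and 1 lower at an adjusted p of 0.05, where it called 4.48% of the genes it gave an adjusted p higher and 11% lower. By limma-voom 1 member was called higher, as were 0.05% of genes, and 0.025% were lower. With the tumour as a block, limma-voom called 2 members higher and 0 lower, where 2.03% of genes were higher and 4.49% lower. By the authors' deposited table, 3 members had an adjusted p under 0.05 and a higher NP+ level (Apln, Aplnr and Ramp3), and Ramp1 had one with a lower level. Among all genes with an adjusted p in the authors' deposited table, 3.71% were higher and 9.45% lower by that rule.

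**Figure D1:**
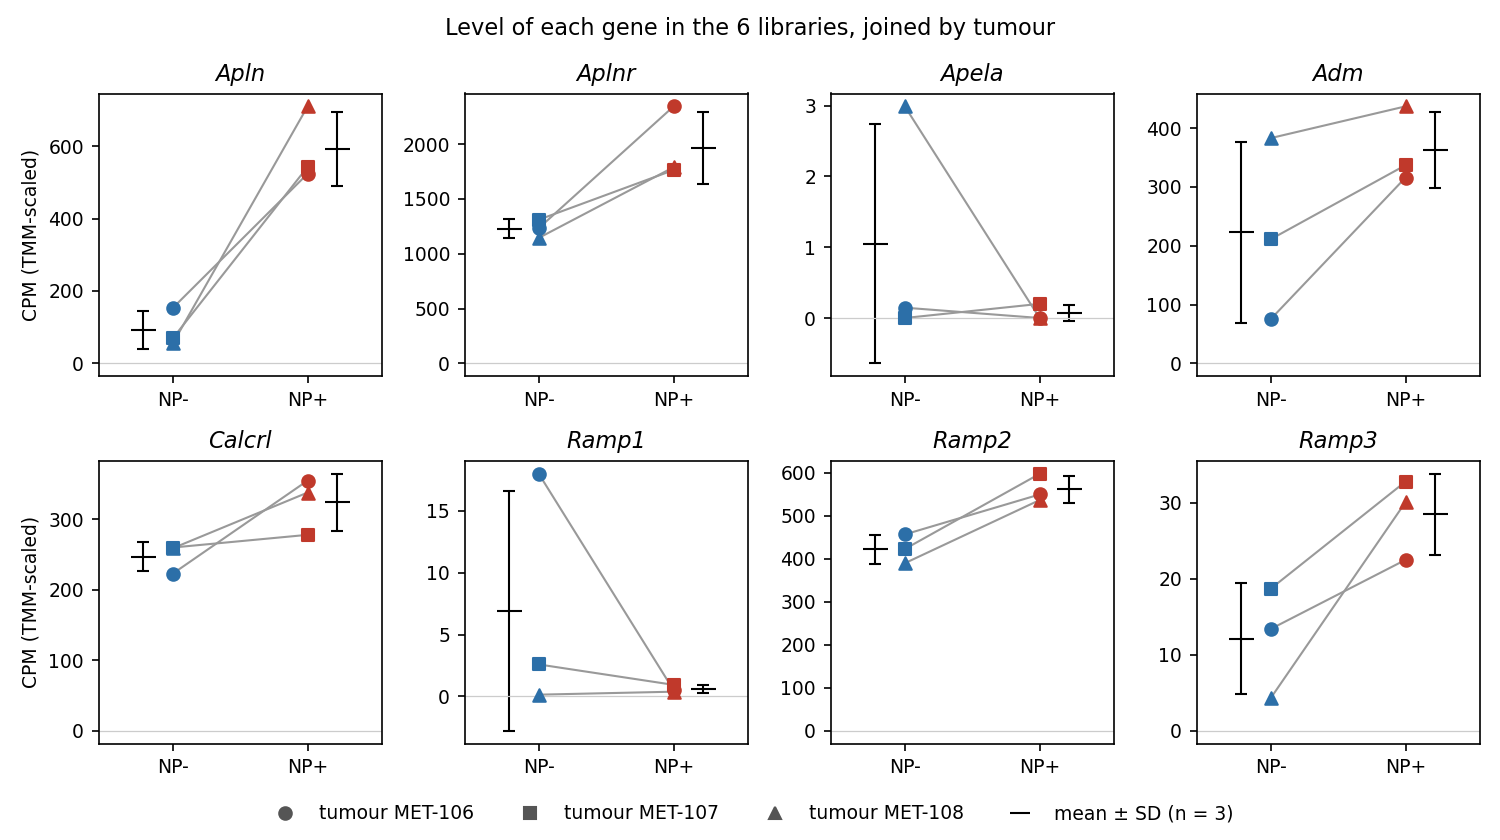
Level of each of the 8 genes in the 6 libraries, as TMM-scaled CPM on a linear axis whose scale differs between panels, with NP- in blue and NP+ in red. Marker shapes are tumours, grey lines join the fractions of 1 tumour, and black bars are the mean ± SD of 3 libraries. Apln, Aplnr, Calcrl, Ramp2 and Ramp3 have NP+ wholly above NP-, whereas Adm and Ramp1 overlap.

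Of the ligands, Apln had the largest log2 fold change in size among the members above 5 CPM. Apln lies on the minus strand of the X chromosome (GRCm38, chrX:48025146-48034853), and none of its exonic bases is shared with another annotated gene. Apela, which encodes the other ligand of the same receptor, lies on the minus strand of chromosome 8 (chr8:65028417-65037336). Their coding sequences, from GENCODE mouse release 21 on GRCm38, are shown because both genes turn a short reading frame into a peptide for 1 receptor, yet were measured at very different levels. Capitals mark the codons of the mature peptide at the carboxyl end, 13 codons for apelin-13 and 32 for Elabela.
Apln: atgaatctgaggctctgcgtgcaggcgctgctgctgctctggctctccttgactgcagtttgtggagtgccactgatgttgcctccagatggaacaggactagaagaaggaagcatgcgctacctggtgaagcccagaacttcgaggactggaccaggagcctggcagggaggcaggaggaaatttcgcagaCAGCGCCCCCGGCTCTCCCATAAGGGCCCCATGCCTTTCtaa
Apela: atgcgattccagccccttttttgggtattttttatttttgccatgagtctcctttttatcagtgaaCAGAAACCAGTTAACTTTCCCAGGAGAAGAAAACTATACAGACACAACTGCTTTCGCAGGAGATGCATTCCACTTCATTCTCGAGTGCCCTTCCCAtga
The Apln frame has 77 codons before its stop and the Apela frame has 54. In both, the mature peptide is the last part of the frame, directly before the stop codon.

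Apln RNA measured 524, 543 and 710 CPM in the NP+ libraries, against 153, 69.2 and 55.1 CPM in the NP- libraries. The fractions did not overlap, and the lowest NP+ library was well above the highest NP- library, that of MET-106. The means were 592 ± 102 and 92.5 ± 53 CPM, 6.4 times as high in NP+. Within the tumours the ratio was 3.42 in MET-106, 7.84 in MET-107 and 12.9 in MET-108, so the direction was shared by 3 of 3 tumours while its size differed among them. The log2 fold change was 2.68 (SE 0.38), with an edgeR adjusted p of 0.06. The call depended on single libraries: edgeR gave an adjusted p of 0.00626 and a log2 fold change of 3.31 without the NP- library of MET-106, and 0.0329 and 2.43 without that of MET-108. Calls over all genes rose too. In the main fit 0.0125% were called higher and 0.0167% lower. The shares were 3.48% and 4.86% without the former library, and 0.428% and 0.671% without the latter. Over all settings run, the adjusted p of Apln ranged from 1.15e-11 (DESeq2 with the tumour as a block) to 0.393 (edgeR without MET-107). The authors' deposited table gives 2.72 on the log2 scale with an adjusted p of 6.18e-09.

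Apela was barely detected. Its NP+ libraries had counts of 0, 11 and 0, and its NP- libraries 7, 0 and 89. The NP- library of MET-108 held nearly all of them and reached 2.99 CPM, while the other libraries with a count stood at 0.2 and 0.146 CPM. A count of 0 allows a level of up to 0.0717 and 0.0668 CPM of all gene counts in the NP+ libraries of MET-106 and MET-108, and up to 0.144 CPM in the NP- library of MET-107, for counting error only. Without the NP- library of MET-108 the NP- mean was 0.0731 CPM. Apela shares 297 of its 1004 exonic bases with Gm45886, a gene model on the same strand with a count of 0 in all libraries. The edgeR fit did not test Apela, and the authors' deposited table gives an adjusted p of 0.209.

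Adm encodes adrenomedullin, a vasodilating peptide whose gene is a well-known target of the hypoxia response (chr7:110627661-110629820, plus strand). Its RNA measured 316, 337 and 437 CPM in the NP+ libraries, against 75.2, 211 and 383 CPM in the NP- libraries. The NP+ libraries lay close together, whereas the NP- libraries were widely spread, and the NP- library of MET-108 was above both other tumours' NP+ libraries. The means were 363 ± 65 and 223 ± 154 CPM, a ratio of 1.63. Each tumour had more Adm in NP+, by 4.2 times in MET-106, 1.6 times in MET-107 and 1.14 times in MET-108. In edgeR the log2 fold change was 0.70 (SE 0.47, adjusted p = 0.373). With the tumour as a block the log2 fold change was 0.97 in edgeR (adjusted p = 0.179), and the DESeq2 adjusted p was 0.0263 with the block and 0.224 without it. The value rested on single NP- libraries: without that of MET-106 the ratio of means was 1.22 and the log2 fold change 0.34 (edgeR adjusted p = 0.41), and without that of MET-108 they were 2.54 and 1.38 (edgeR adjusted p = 0.107). Over all settings its adjusted p ranged from 0.0263 to 0.772. The tumour with the largest Adm ratio, MET-106, had the smallest Apln ratio, and MET-108 had the reverse. Apln per Adm, in per-length units (TPM, below), was 0.854, 0.828 and 0.835 in the NP+ libraries but 1.05, 0.169 and 0.074 in the NP- libraries. The 2 peptide RNAs thus stood in a nearly constant ratio in NP+, with an SD of 0.0136, and in no fixed ratio in NP- (SD 0.537). Over all genes tested the NP+ libraries were also more alike, with correlations of 0.959 to 0.97 against 0.832 to 0.876 among the NP- libraries. Whether this ratio was steadier in NP+ than those of other gene pairs was not tested.

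Aplnr encodes the receptor of apelin and Elabela (chr2:85136225-85139923, plus strand) and was the most abundant member per length in every library. Its RNA measured 2344, 1763 and 1789 CPM in the NP+ libraries, against 1233, 1310 and 1144 CPM in the NP- libraries. All NP+ libraries were above all NP- libraries, and that of MET-106 was the highest. The means were 1965 ± 329 and 1229 ± 83.3 CPM, 1.6 times as high in NP+, with ratios of 1.9, 1.35 and 1.56 within the tumours. The log2 fold change was 0.68 (SE 0.19, edgeR adjusted p = 0.127). The authors' deposited table gives 0.76 with an adjusted p of 0.0164.

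Calcrl encodes the receptor that the RAMPs complete (chr2:84330626-84425411, minus strand). Its RNA measured 355, 278 and 338 CPM in the NP+ libraries, against 223, 260 and 259 CPM in the NP- libraries. In this scaling the fractions were separated only narrowly, with the NP+ library of MET-107 just above 2 of the NP- libraries. In TPM (below), which uses no TMM scaling, the fractions overlapped. Calcrl stood at 189, 144 and 177 TPM in NP+ against 123, 158 and 157 TPM in NP-, and MET-107 was higher in NP-. The means were 324 ± 40.5 and 247 ± 20.9 CPM, a ratio of 1.31, and the ratio within MET-107 was 1.07. This gave a log2 fold change of 0.39 (SE 0.17, edgeR adjusted p = 0.217).

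Ramp2 encodes the RAMP that makes Calcrl an adrenomedullin receptor in endothelial cells (chr11:101246028-101259546, plus strand). Its RNA measured 550, 598 and 537 CPM in the NP+ libraries, against 457, 423 and 390 CPM in the NP- libraries. In TMM-scaled CPM these 2 groups of 3 were tight and did not overlap. They were also apart in TPM (below), at 434, 459 and 416 TPM against 371, 379 and 350 TPM. The means were 562 ± 32 and 423 ± 33.7 CPM, a ratio of 1.33, with 1.2, 1.42 and 1.38 within the tumours. In edgeR its log2 fold change was 0.41 (SE 0.16, adjusted p = 0.18). That value depended on the scaling, and with total-count scaling it was 0.11 (SE 0.15, edgeR adjusted p = 0.681). In the annotation Ramp2 shares 1103 of its 3301 exonic bases with Vps25, on the same strand. Vps25 averaged 3.59 ± 0.694 CPM in NP+ against 2.62 ± 0.991 CPM in NP-, so reads given to it were few beside those of Ramp2. How reads in the shared bases were assigned is not given in the sources used here.

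Ramp3 encodes the second adrenomedullin-type RAMP, which also directs the receptor's recycling (chr11:6658521-6677475, plus strand). Its RNA measured 22.5, 32.8 and 30.1 CPM in the NP+ libraries, against 13.4, 18.7 and 4.31 CPM in the NP- libraries. The fractions did not overlap, and the NP- library of MET-108 was the lowest. The means were 28.5 ± 5.31 and 12.1 ± 7.29 CPM, 2.35 times as high in NP+. The ratios within tumours were 1.68 and 1.75 in MET-106 and MET-107 and 7 in MET-108. The log2 fold change was 1.23 (SE 0.47, edgeR adjusted p = 0.176), and 0.85 without the NP- library of MET-108. The authors' deposited table gives 1.31 with an adjusted p of 0.0436. Ramp3 shares 101 of 1380 exonic bases with Gm11978 on the opposite strand, a model with 84 counts over all libraries, and the kit does not mark strand.

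Ramp1 encodes the RAMP of the CGRP receptor (chr1:91179822-91225196, plus strand) and was rare in all but 1 library. Its counts were 18, 51 and 15 in the NP+ libraries, against 863, 62 and 4 in the NP- libraries, or 0.494, 0.929 and 0.376 CPM against 18, 2.58 and 0.135 CPM. The fractions overlapped: NP- was higher in MET-106 and MET-107, and NP+ was higher in MET-108. The log2 fold change was -3.52 (SE 1.33, edgeR adjusted p = 0.174), and -1.82 (edgeR adjusted p = 0.42) with the tumour as a block. The library with the high Ramp1 level was the NP- library of MET-106, the one with the highest summed fibroblast, pericyte and smooth muscle, and epithelial markers. Without it the log2 fold change was -1.10 (edgeR adjusted p = 0.534), and over all settings the adjusted p of Ramp1 ranged from 0.015 to 0.721. The order of the 3 NP- libraries by Ramp1 was also their order by the fibroblast sum (4137, 160 and 71.5 CPM) and the pericyte and smooth muscle sum (867, 268 and 150 CPM). Not every marker followed that order, and Kcnj8 and Abcc9 of the pericyte and smooth muscle list measured 38.8, 16.5 and 28.1 CPM and 48.2, 38.5 and 56.7 CPM in the NP- libraries. Nor did the order hold across the fractions. The NP- library of MET-108 had the lowest Ramp1 level of all (0.135 CPM). Yet its fibroblast and pericyte sums were above those of every NP+ library (21.5 to 69.6 CPM and 97.2 to 119 CPM). A link between Ramp1 and these markers was not tested. The authors' deposited table gives -3.53 for Ramp1 with an adjusted p of 0.0166.

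**Figure D2:**
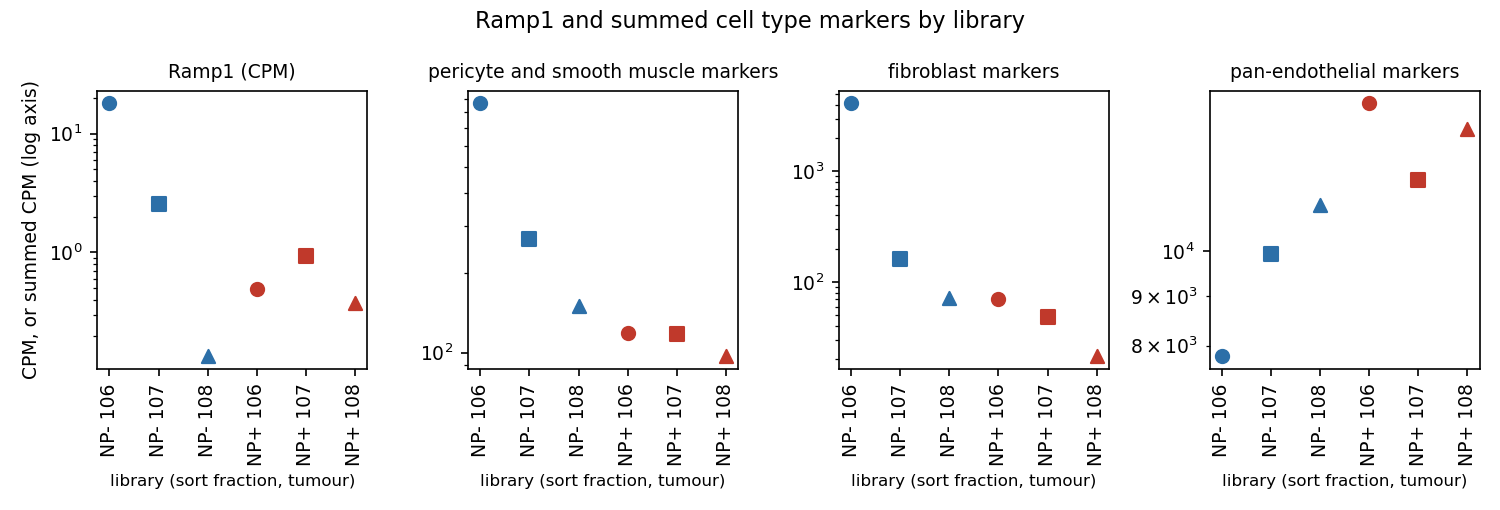
Ramp1 (CPM, left) and the summed CPM of the pericyte and smooth muscle, fibroblast and pan-endothelial marker lists in each of the 6 libraries, 1 point a library, on log axes that differ between panels. The NP- library of MET-106 is highest for Ramp1 (18 CPM), for pericyte and smooth muscle markers (867 CPM) and for fibroblast markers (4137 CPM), and lowest for pan-endothelial markers (7809 CPM).

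The members' fold changes are set against the whole table as follows. The median log2 fold change of the 7 tested members was 0.68, with 6 positive and 1 negative. All 23989 genes tested had a median of -0.29, and the genes with a mean of at least 5 CPM had one of 0.24, with 7902 of 10825 positive. A positive sign was therefore common among genes as abundant as these. The 12 pan-endothelial markers had a median of 0.42, beside 0.39 for Calcrl and 0.41 for Ramp2. Whether Calcrl and Ramp2 moved apart from endothelial RNA at large was not tested. Upper-quartile and total-count scaling placed the median of all genes at -0.53 and -0.59, and no member changed sign under either. The log2 fold changes of all 7 tested members were lower under both, however. Calcrl stood at 0.13 and 0.08, Ramp2 at 0.17 and 0.11, Aplnr at 0.43 and 0.37, and Apln at 2.46 and 2.39. With only genes of at least 5 CPM in 3 libraries, Calcrl was at 0.11 and Ramp2 at 0.14. The TMM factors were 0.8714 to 0.9468 in the NP+ libraries and 1.073 to 1.164 in the NP- libraries.

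**Figure D3:**
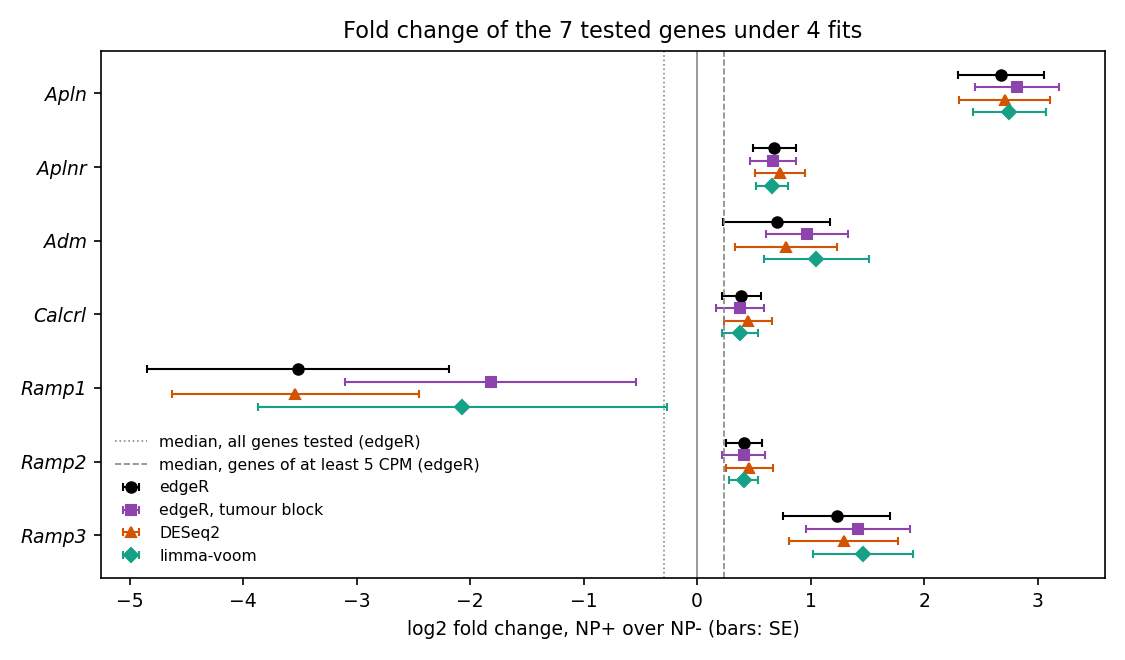
Log2 fold change of NP+ over NP- (x axis, bars are SE) for the 7 tested members under edgeR, edgeR with the tumour block, DESeq2 and limma-voom. The dotted and dashed lines are the edgeR medians of all genes tested (-0.29) and of genes of at least 5 CPM (0.24). Apln lies near 2.68 under each fit, Calcrl and Ramp2 lie close to the dashed line, and Ramp1 has the widest bars.

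To compare the genes with each other, counts were divided by exonic length and scaled to a common total per library (TPM). Aplnr led in both fractions, with 1365 ± 248 TPM in NP+ and 952 ± 84.2 TPM in NP-, and ranked between 52 and 136 among all genes of a library. In NP+ it was followed by Adm (575 ± 100 TPM), Apln (482 ± 81.3 TPM) and Ramp2 (436 ± 21.8 TPM). Apln overlapped both of its neighbours, while the ranges of Adm (508 to 690 TPM) and Ramp2 (416 to 459 TPM) were apart. Calcrl (170 ± 23.2 TPM) and Ramp3 (52.8 ± 9.19 TPM) came next and stood clear of their neighbours, and Ramp1 and Apela were at 0.508 and 0.169 TPM. In NP- the order after Aplnr was Adm (403 ± 288 TPM), Ramp2 (367 ± 15.1 TPM), Calcrl (146 ± 20.1 TPM), Apln (82.4 ± 42 TPM) and Ramp3 (25.1 ± 15.5 TPM). Adm spanned 124 to 700 TPM there and could not be separated from Ramp2 or Calcrl, and the highest Apln library (130 TPM) lay within the range of Calcrl. Apln ranked 272 to 374 among all genes in the NP+ libraries and 1257 to 2855 in the NP- libraries. With the bases it shares with Vps25 left out of its length, Ramp2 would stand at 656 and 551 TPM, above Apln and Adm in mean in NP+ and above Adm in NP-.

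**Figure D4:**
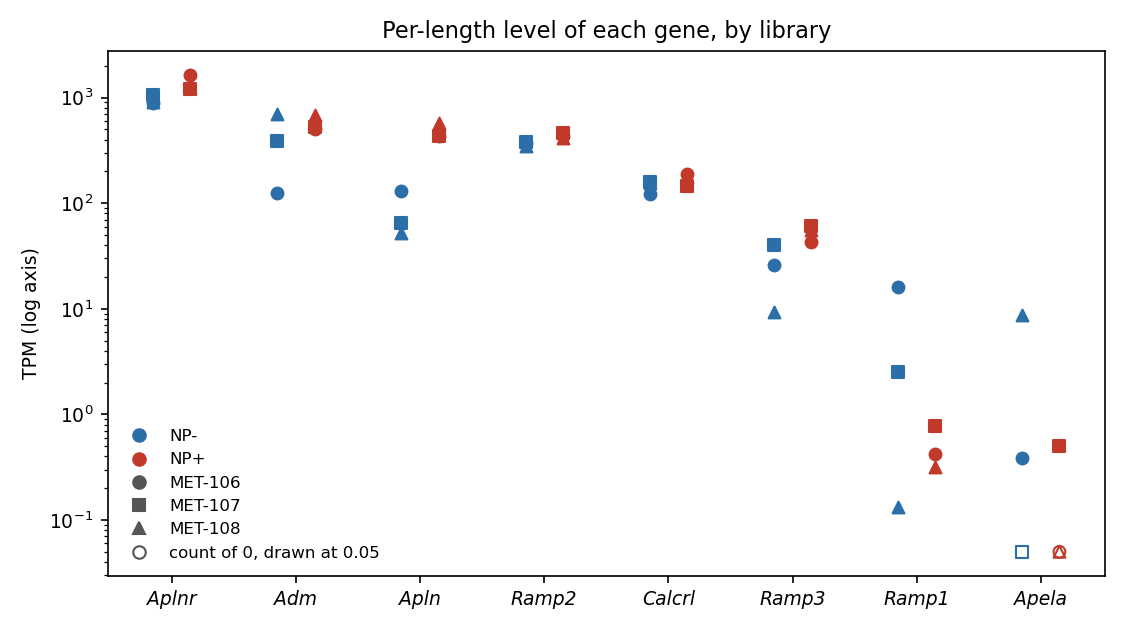
Per-length level of the 8 genes (TPM, log axis) in each library, NP- in blue and NP+ in red, ordered by the NP+ mean, with shapes for tumours and open symbols at 0.05 for counts of 0. Aplnr is highest in every library, Adm spans 124 to 700 TPM in NP-, and Apln is the abundant gene whose fractions lie farthest apart.

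Apln TPM per Aplnr TPM was 0.263, 0.362 and 0.466 in the NP+ libraries, against 0.146, 0.062 and 0.0566 in the NP- libraries, without overlap. Receptor RNA stood above ligand RNA by 2.91 ± 0.84 times in NP+ and by 13.5 ± 5.85 times in NP-. For adrenomedullin the ratio of ligand to receptor, Adm per Calcrl, was 3.41 ± 0.644 in NP+ and 2.64 ± 1.73 in NP-, and the libraries overlapped. Ramp2 per Calcrl was 2.61 ± 0.498 and 2.55 ± 0.421, a difference within the spread of either fraction. Ramp2 made up 88.1 to 91% of the summed RAMP TPM in NP+ and 89.8 to 97.4% in NP-. Ramp3 supplied 8.91 to 11.8% and 2.57 to 9.52%, and the ranges overlapped narrowly. Ramp1 reached 3.87% in the NP- library of MET-106 and 0.0367 to 0.599% in the other libraries.

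Across the 6 libraries Apln followed Ramp2 most closely among the abundant members (Pearson r of log2 CPM 0.957), and Aplnr followed Calcrl (0.875) and Apln (0.864). Adm was nearest to Calcrl (0.716) and far from the others, with r of 0.435 to Aplnr, 0.32 to Apln, 0.276 to Ramp2 and 0.111 to Ramp3. These coefficients describe 6 libraries that share 3 tumours and 2 fractions, and a split between fractions alone produces a high r. Among 10824 genes of at least 5 CPM, those most like Apln were Mfsd5 and Lsm12 (r = 0.998) and Afg3l2 (0.997). Aplnr was followed most closely by Cog4 (0.998), Zfp319 (0.992) and Gpaa1 (0.99), Calcrl by Plekhg1 (0.995), Mospd3 and Shroom4 (0.994), and Ramp2 by Nudt4, Dnttip1 and Tmpo (0.991). Ramp3 was closest to Gm10093 (0.996), Habp4 and Golga4 (0.994). The genes nearest to Adm were Aar2 (0.992), Acads (0.991) and Synpo (0.987), and Aar2 and Acads, like Adm, overlapped between the fractions.

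Of the relatives of these peptides and receptors, 6 of 10 genes were tested and their median log2 fold change was -1.94, where that of all genes tested was -0.29. In edgeR 0 of the list passed an adjusted p of 0.05. At an unadjusted p under 0.05 there were 0 higher and 3 lower, where 8.01% of all genes were higher and 15.4% lower. DESeq2 called 0 higher and 2 lower (Agtr1a and Calcr), and limma-voom with the tumour as a block called the same 2. Of the genes it gave an adjusted p, DESeq2 called 4.48% higher and 11% lower. The shares of limma-voom with the block were 2.03% and 4.49%. In this list and in each of the 4 that follow, limma-voom without the block and edgeR with the block called 0 genes. The number lower at an unadjusted p under 0.05 was 1 without the NP- library of MET-106, and 1 without the NP+ library of MET-108. Over all genes that number was 3684 of 23989 in the main fit, and 6217 of 27794 and 2334 of 28620 without those libraries. With only genes of at least 5 CPM in 3 libraries the median of the list was -0.19. Ackr3, a scavenging receptor that takes up adrenomedullin as well as chemokines, was the most abundant of the list and averaged 169 ± 22.5 CPM in NP+ against 159 ± 81.2 CPM in NP-. Its NP- libraries (86.1, 145 and 247 CPM) had the same tumour order as those of Adm. Agtr1a, the angiotensin II receptor related to Aplnr, averaged 1.79 ± 1.34 against 9.12 ± 7.89 CPM (log2 fold change -2.35, edgeR adjusted p = 0.15), with its highest level, 18.2 CPM, in the NP- library of MET-106. Calca, which encodes CGRP, and Calcr, the calcitonin receptor, reached at most 1.11 and 4.66 CPM in any library. In NP+ they stood at 0.0753 to 0.182 and 0.0824 to 0.51 CPM. They passed the filter on low counts through their NP- levels, so their direction was favoured by that filter.

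Genes of peptide processing and breakdown were split in direction: of 10 genes, 5 were positive and 5 negative (median 0.00). In edgeR 0 passed an adjusted p of 0.05, 2 were higher and 4 lower at an unadjusted p under 0.05, and DESeq2 and limma-voom with the tumour as a block each called 1 higher and 4 lower. The shares of all genes were 8.01% higher and 15.4% lower at that unadjusted p. They were 4.48% and 11% by DESeq2, and 2.03% and 4.49% by limma-voom with the block. Among genes of at least 5 CPM, 17.5% were higher at that unadjusted p. The number of the list higher at an unadjusted p under 0.05 was 1 under several settings, among them without tumour MET-106 and without tumour MET-108. Over all genes that number was 1922 of 23989 in the main fit, 3168 of 26306 without MET-106 and 1092 of 25358 without MET-108. Prep, a peptidase that cuts after proline, measured 159, 157 and 169 CPM in the NP+ libraries, against 81.6, 46.4 and 52.4 CPM in the NP- libraries (log2 fold change 1.43, SE 0.23, edgeR adjusted p = 0.0813). Pcsk5, a proprotein convertase, averaged 2.37 ± 1.36 against 14.2 ± 7.61 CPM (adjusted p = 0.113 in edgeR). Ece1, the endothelin-converting enzyme, was the most abundant of the list and averaged 1811 ± 240 against 1331 ± 277 CPM (edgeR adjusted p = 0.241). Pcsk7, another convertase, averaged 133 ± 38.3 against 90.4 ± 8.66 CPM, with the libraries overlapping. Mme, the peptidase neprilysin, which inactivates apelin, measured 0.577, 0.492 and 0.401 CPM in the NP+ libraries, against 1.52, 6.19 and 2.62 CPM in the NP- libraries. Mme and Pcsk5 were among the 4 genes that DESeq2 called lower.

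Genes of receptor coupling (G proteins, arrestins, receptor kinases, adenylyl cyclases, protein kinase A and its kin) were positive in 25 of 32 cases, with a median of 0.35, where 7902 of the 10825 genes of at least 5 CPM were positive. In edgeR 0 passed an adjusted p of 0.05, 10 were higher and 2 lower at an unadjusted p under 0.05, where 8.01% and 15.4% of all genes were, and 17.5% of genes of at least 5 CPM were higher. DESeq2 called 6 higher and 2 lower, where its shares of all genes were 4.48% and 11%. With the tumour as a block, limma-voom called 3 higher and 1 lower, where its shares were 2.03% and 4.49%. The edgeR count of 10 higher was 5 under upper-quartile scaling, 3 under total-count scaling and 4 without tumour MET-107. The count over all genes fell too, from 1922 of 23989 to 785 and 610 under those scalings and to 1111 of 23079 without MET-107. Gnai2, the inhibitory G protein subunit through which Aplnr signals, was the most abundant of the list and measured 1394, 1547 and 1451 CPM in the NP+ libraries, against 775, 290 and 114 CPM in the NP- libraries. As with Apln, its ratio between the fractions was smallest in MET-106 and largest in MET-108, and its log2 fold change was 1.90 (SE 0.57, edgeR adjusted p = 0.139). Gna13 averaged 135 ± 6.56 against 72.7 ± 20.9 CPM, Prkacb, a catalytic subunit of protein kinase A, averaged 265 ± 58.2 against 157 ± 21.3 CPM, and Grk5, a receptor kinase, averaged 66.5 ± 10.1 against 38.5 ± 7.55 CPM. Their edgeR adjusted p were 0.126, 0.127 and 0.13. Gnas, the stimulatory subunit through which Calcrl raises cyclic AMP, averaged 52.7 ± 10.4 against 45.5 ± 6.89 CPM and overlapped. The cyclase gene Adcy4 overlapped too and averaged 273 ± 35.5 against 261 ± 92.1 CPM. Adcy7 averaged 2.02 ± 0.764 against 10.3 ± 10 CPM, with 21.3 CPM in the NP- library of MET-106.

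Endothelial effectors of these receptors held genes of either sign. Of 15 genes, 0 passed an adjusted p of 0.05 in edgeR, 3 were higher and 3 lower at an unadjusted p under 0.05, and DESeq2 and limma-voom with the tumour as a block each called 1 higher (Mef2a) and 3 lower (Klf4, Gja4 and Gja5). The shares of all genes were 8.01% higher and 15.4% lower at that unadjusted p. They were 4.48% and 11% by DESeq2, and 2.03% and 4.49% by limma-voom with the block. Among genes of at least 5 CPM, 17.5% were higher at an unadjusted p under 0.05. The number of the list higher at it was 6 without a filter on low counts, and 1 without tumour MET-107 or MET-108 and under upper-quartile or total-count scaling. Over all genes that number was 1922 of 23989 in the main fit and 2845 of 44259 without the filter. It was 1111 of 23079 without MET-107, 1092 of 25358 without MET-108, and 785 and 610 of 23989 under the 2 scalings. Mef2a, a transcription factor downstream of Aplnr signalling, averaged 195 ± 16.3 against 89.6 ± 19.1 CPM (log2 fold change 1.12, edgeR adjusted p = 0.0875). Klf4, a flow-responsive transcription factor, measured 29, 31 and 26.8 CPM in the NP+ libraries, against 57.4, 61.4 and 49.6 CPM in the NP- libraries (log2 fold change -0.96, SE 0.19, edgeR adjusted p = 0.0928). The arterial gap junction genes Gja4 and Gja5 averaged 109 ± 14.5 against 232 ± 54 CPM and 78.9 ± 1.94 against 157 ± 40.6 CPM (edgeR adjusted p of 0.0941 and 0.102). Akt1 and Prkaa1, a survival kinase and a subunit of AMP-activated kinase, averaged 55.1 ± 9.2 against 37.3 ± 0.803 CPM and 116 ± 12.3 against 87.7 ± 6.69 CPM. Cdh5, the endothelial cadherin and the most abundant of the list, measured 569, 651 and 551 CPM in the NP+ libraries, against 311, 494 and 502 CPM in the NP- libraries (edgeR adjusted p = 0.253). Nos3, the nitric oxide synthase through which both peptides relax vessels, averaged 549 ± 56.7 against 401 ± 123 CPM (edgeR adjusted p = 0.29). The median of the list was 0.12, and it was negative under upper-quartile (-0.13) and total-count (-0.18) scaling.

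Adm and Apln are both known hypoxia-response genes, so other such genes were set beside them. Of 25 genes, 19 were positive and 6 negative, with a median of 0.40, where 7902 of the 10825 genes of at least 5 CPM were positive. In edgeR 0 passed an adjusted p of 0.05, 7 were higher and 1 lower at an unadjusted p under 0.05, where 8.01% and 15.4% of all genes were, and 17.5% of genes of at least 5 CPM were higher. DESeq2 called 6 higher and 1 lower, where its shares of all genes were 4.48% and 11%. With the tumour as a block, limma-voom called 5 higher and 1 lower, where its shares were 2.03% and 4.49%. The number higher at an unadjusted p under 0.05 was 2 under upper-quartile scaling, 3 under total-count scaling and without tumour MET-107, 11 by DESeq2 with the block, and 12 without a filter on low counts and without tumour MET-108. It was 16 without the NP- library of MET-108. Over all genes that number was 1922 of 23989 in the main fit, 785 under upper-quartile scaling and 610 under total-count scaling. It was 1111 of 23079 without tumour MET-107, 2550 of 23989 by DESeq2 with the block and 2845 of 44259 without the filter. Without tumour MET-108 it was 1092 of 25358, and without the NP- library of MET-108 it was 2650 of 26382. Pdk1, a kinase that keeps pyruvate from the mitochondria, averaged 65.8 ± 9.21 against 25.9 ± 7.44 CPM (log2 fold change 1.34, SE 0.25, edgeR adjusted p = 0.0887). Hif1a, the oxygen-regulated transcription factor, averaged 1061 ± 199 against 426 ± 216 CPM, and the glycolytic genes Pgk1 and Ldha averaged 340 ± 17.2 against 198 ± 53.2 CPM and 2161 ± 95 against 1548 ± 97 CPM. Their edgeR adjusted p were 0.139, 0.128 and 0.152. Hk2, a hexokinase, went the other way, at 1.35 ± 0.46 in NP+ and 10.8 ± 5.43 CPM in NP- (edgeR adjusted p = 0.0887). Vegfa was low and did not differ beyond its spread (5.45 ± 1.85 and 5.18 ± 2.75 CPM). The log2 fold change of Apln was above that of all 25 genes of the list, and that of Adm (0.70) lay among them.

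**Figure D5:**
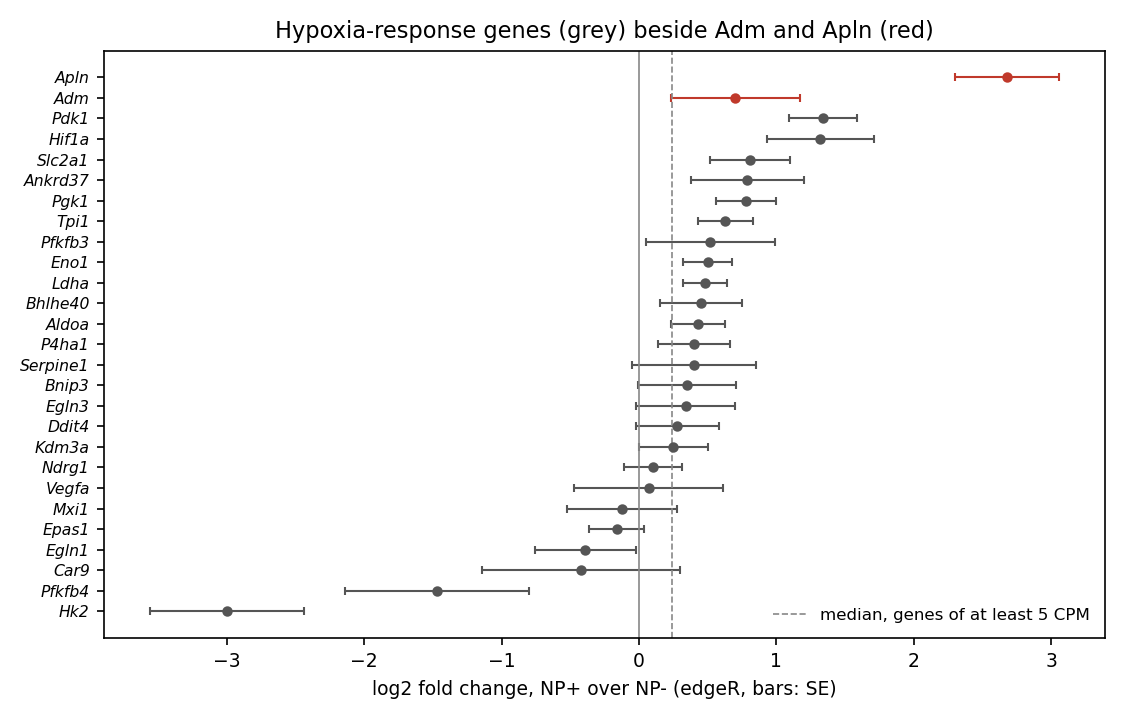
Log2 fold change of NP+ over NP- (edgeR, bars are SE) for the 25 hypoxia-response genes in grey, ordered by value, with Adm and Apln in red above them. The dashed line is the median of genes of at least 5 CPM (0.24). Apln (2.68) lies to the right of all grey points, Adm (0.70) lies within their range, and Hk2 is the lowest.

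The promoters of both peptide genes were searched for ACGTG and GCGTG, the core letters that hypoxia-inducible factors bind, on either strand. The windows are RefSeq promoters on GRCm38.p6, from 250 bases before to 50 bases after the start of the gene, and 6 of 8 members had one. The parts before the start are shown for Adm (chr7:110627407-110627656, plus strand) and Apln (chrX:48034854-48035103, minus strand), the members of the set known as hypoxia-response genes, with matches in capitals.
Adm: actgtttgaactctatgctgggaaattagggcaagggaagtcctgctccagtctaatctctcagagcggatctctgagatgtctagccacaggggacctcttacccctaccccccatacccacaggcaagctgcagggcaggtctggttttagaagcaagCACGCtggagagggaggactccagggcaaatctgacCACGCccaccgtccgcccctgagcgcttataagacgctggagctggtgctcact
Apln: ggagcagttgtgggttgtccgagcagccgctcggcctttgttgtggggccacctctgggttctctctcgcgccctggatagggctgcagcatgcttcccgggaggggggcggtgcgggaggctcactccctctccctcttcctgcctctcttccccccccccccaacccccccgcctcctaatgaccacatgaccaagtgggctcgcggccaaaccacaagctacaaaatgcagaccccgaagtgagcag
Adm held 2 matches, both GCGTG on the minus strand, with their first base at -90 and -54 from the start. The Apln window held 0. Ramp3 held 2 matches, Calcrl and Apela 1 each and Ramp1 0. Of all 32851 promoter windows of this length 43.8% held at least 1 match, so a match is common, and it describes the letters alone.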

How the data were processed

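The deposited files hold 1 raw count per gene and library, made by the authors with Trimmomatic 0.036, STAR 2.5.2b and featureCounts of Subread 1.5.2 on GRCm38 (mm10), per the submitters' processing notes. Libraries were made with SMART-Seq v4, which marks neither strand nor molecules, and read as 150 bp pairs, per the labels' protocols. For the annotation release, strand setting and multi-mapping rule: not given in the sources used here. The authors' deposited table adds a normalized signal per library, a log2 fold change (NP- over NP+, turned here to NP+ over NP-), a p-value and an adjusted p-value. Divided by the value of 1 read, 100% of the 156426 signal values were whole to within 0.01 reads, and edgeR on these recovered reads called 3 genes higher and 4 lower of 23413.

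The main test was edgeR 4.0.16 (R 4.3.3) on the counts: TMM scaling, filterByExpr by group (minimum count 10), the quasi-likelihood F test without a block, and Benjamini-Hochberg adjustment over 23989 genes with a threshold of 0.05. The SE is the log2 fold change divided by the square root of F. Alternatives were DESeq2 1.42.0, limma-voom (limma 3.58.1), the tumour as a block, other scalings and filters, and each library or tumour left out. NP+ and NP- libraries with 1 number come from 1 tumour, per the labels, so the numbers pair the libraries, and their deviations from the group means correlated at 0.282, 0.214 and 0.0209. The labels do not say whether each tumour came from a separate mouse, and the p-values measure only the spread among these 3 tumours. TPM used the exonic lengths in the count files.

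The members, gene lists and rules were chosen with earlier results of these data known. The text names all 8 members. From each list it names up to 3 genes per direction with the smallest unadjusted p under 0.05 (among genes averaging 5 CPM or more) plus the most abundant gene. It also names the 3 genes most like each member. Not every gene picked this way is reported here. Calca, Calcr, Mme, Gnas, Adcy4, Nos3 and Vegfa were named after their values were seen, for their roles, as were Ankrd37, Bnip3, Egln3, Kcnj8 and Abcc9, for their values. The symbols Adrbk1, Adrbk2 and Nherf1 of the coupling list are older or newer names and were not matched. Of the other marker lists, lymphatic endothelial genes summed to 563 to 793 CPM in NP+ and 501 to 2001 CPM in NP-, macrophage genes to 13 to 22.6 and 25 to 36.3 CPM, neutrophil genes to 4.2 to 6.55 and 7.23 to 88.4 CPM, T, B and NK cell genes to 3.61 to 4.15 and 10 to 33.4 CPM, and adipocyte genes to 1.76 to 2.64 and 2.42 to 6.24 CPM.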

Additional observations from a re-analysis of the deposited data

How the results depend on the processing

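No member changed sign under any of the settings run, but under total-count scaling Calcrl fell to 0.08 and Ramp2 to 0.11. Where edgeR called 0 members higher and 0 lower, DESeq2 called 3 and 1, DESeq2 with the tumour as replicate block 4 and 0, limma-voom 1 and 0, limma-voom with the block 2 and 0, edgeR without a filter on low counts 2 and 1, a filter of at least 5 CPM in 3 libraries 1 and 0, an adjusted p under 0.1 1 and 0, and an unadjusted p under 0.05 4 and 1. The edgeR fit with the block gave 0 and 0. Leaving out libraries or tumours gave 0 to 1 higher and 0 lower.

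Apln passed at a log2 fold change of 2.71 with DESeq2, 2.88 with DESeq2 and the block, 2.75 with limma-voom, 2.73 with limma-voom and the block, 2.80 without the filter and 2.43 with the 5 CPM filter, and ranged from 2.30 to 3.53 with a library or tumour left out. Aplnr passed with DESeq2 (0.73), DESeq2 and the block (0.72) and limma-voom with the block (0.68). Adm passed with DESeq2 and the block (1.03). Ramp1 passed with DESeq2 (-3.54) and without the filter (-3.52). Ramp3 passed with DESeq2 (1.29), DESeq2 and the block (1.48) and without the filter (1.42). The edgeR fit with the tumour as replicate block gave 2.82 for Apln, 0.67 for Aplnr and 0.97 for Adm, with no call changed. Its adjusted p were 0.0629 for Apln, 0.138 for Aplnr, 0.179 for Adm and 0.303 for Calcrl. For Ramp1, Ramp2 and Ramp3 they were 0.42, 0.247 and 0.151. Over all genes, edgeR called 3 higher and 4 lower, against 2 and 13 with the block, 966 and 2365 by DESeq2, 1256 and 2719 by DESeq2 with the block, 12 and 6 by limma-voom, 486 and 1077 by limma-voom with the block, 525 and 686 without the filter, 18 and 87 with the 5 CPM filter, 3 and 18 with upper-quartile scaling, 2 and 9 with total-count scaling, and 968 and 1352 without the NP- library of MET-106. The cause of these differences was not tested. Apela was left out of the main fit by the filter and has no value to compare. Depth limits Apela and Ramp1, whose levels rest on few reads in most libraries.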

Other observations

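The order of the NP- libraries by Adm, lowest in MET-106 and highest in MET-108, was looked for in other genes after the Adm values were seen. It was shared by 14 of 25 hypoxia-response genes (56%), 6 of 12 pan-endothelial markers (50%) and 5 of 32 receptor coupling genes (15.6%). The other lists had it in 4 of 15 endothelial effectors (26.7%), 1 of 6 relatives (16.7%) and 1 of 10 peptide processing genes (10%). The shares were 21.1% of all genes tested and 17.4% of genes with a mean of at least 5 CPM. Ankrd37 stood at 18, 28 and 64.3 CPM in the NP- libraries of MET-106, MET-107 and MET-108, Bnip3 at 47.9, 73.7 and 143 CPM, and Egln3 at 28.3, 39.5 and 83.3 CPM. In the NP+ libraries the same genes stood at 56.1 to 69.5, 98.7 to 133 and 57.9 to 67.1 CPM. Other genes of the list ran the other way: in the NP- libraries, in the same tumour order, Hif1a stood at 590, 506 and 182 CPM and Pdk1 at 33.5, 25.6 and 18.6 CPM. In the NP- library of MET-108 Adm, Bnip3 and Egln3 were therefore within or above their NP+ ranges, while Apln (55.1 CPM) and Ramp3 (4.31 CPM) were at their lowest. The summed pan-endothelial markers had this order too, at 7809, 9947 and 11164 CPM, and their part in it was not tested.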
